A study of Sus scrofa with 8 samples.

Results

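The genes described here encode the thin filament of the sarcomere, the contractile unit of striated muscle: the sarcomeric actins ACTA1 and ACTC1, the tropomyosins TPM1, TPM2 and TPM3, the tropomodulins TMOD1 and TMOD4, nebulin (NEB) and the leiomodins LMOD2 and LMOD3. They were measured in skeletal muscle RNA from pigs fed a high energy diet (HED) or a low energy diet (LED). A spot of the array was taken as a member when the platform annotation gave it a single symbol from this list of 10 genes. That selected 40 of 9984 spots and 8 of the 10 genes, and no spot carried TPM3 or LMOD2 as its single symbol. TPM2 had 20 spots, ACTA1, TMOD4 and NEB had 4 each, and ACTC1, TPM1, TMOD1 and LMOD3 had 2 each.

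Each of 8 arrays with 2 colours carried 1 high energy and 1 low energy sample, in 4 couples of samples that were each hybridised in both dye orientations. Couple 1 held low energy sample 49 and high energy sample 40, couple 2 held 61 and 41, couple 3 held 142 and again 40, and couple 4 held samples that the labels call be and ae. No untreated group was part of the design. The labels give no age, breed or muscle, and do not say whether a sample came from 1 animal or from a pool, so the spread between couples may be partly technical.

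Thin filaments are actin polymers that slide past myosin when a muscle shortens. Tropomyosin runs along the filament and, moved by troponin, opens or covers the myosin binding sites; its isoforms differ between fibre types. Nebulin lies along the filament, tropomodulin caps the end that points to the middle of the sarcomere, and leiomodin nucleates and lengthens filaments at that end.

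Each value is the log2 ratio of an array's channels, centred on the array's median. A ratio carries no expression level, so levels could not be compared between genes and the labelled tissue could not be checked against its markers. The direction of the ratio is not stated. It was read as high over low energy, which is likely but not certain, because channel 1 is labelled low energy and channel 2 high energy throughout and the low energy samples served as reference. Positive values mean higher in high energy muscle under that reading. The turned value given beside a ratio is the estimate after reversing the sign of arrays that had high energy in dye 3, which is what the ratio would be if the deposited values were ratios of one dye over the other. Values were present for 77.6% to 94.4% of spots per array. Correlations between arrays over all spots lay between -0.043 and 0.079, and both ends of that range were swapped arrays of the same RNAs, in couples 4 and 1. Over all spots, the arrays of a couple thus hardly repeated each other.

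None of the 8 thin filament genes passed the test of high against low energy. In limma's moderated test, 0 of 8 genes and 0 of 5025 features (0%) had a Benjamini-Hochberg adjusted p under 0.05. At an unadjusted level of 0.05 the test picked 0 of the 8 genes and 190 of 5025 features (3.78%), or 0 genes and 133 features (2.65%) with the turned values. ACTC1, TPM1, TMOD1 and TMOD4 lay above 0 and ACTA1, TPM2, NEB and LMOD3 below it, whereas the turned values put 5 genes above (ACTA1, TPM1, TMOD4, NEB and LMOD3) and 3 below. The median log2 ratio of the members was 0.0089 (turned 0.069), against -0.012 (turned -0.0085) over all features. The adjusted p was 0.996 for every member in limma's test. The 95% intervals below show how large a difference the 4 couples leave possible for each gene.

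**Figure D1:**
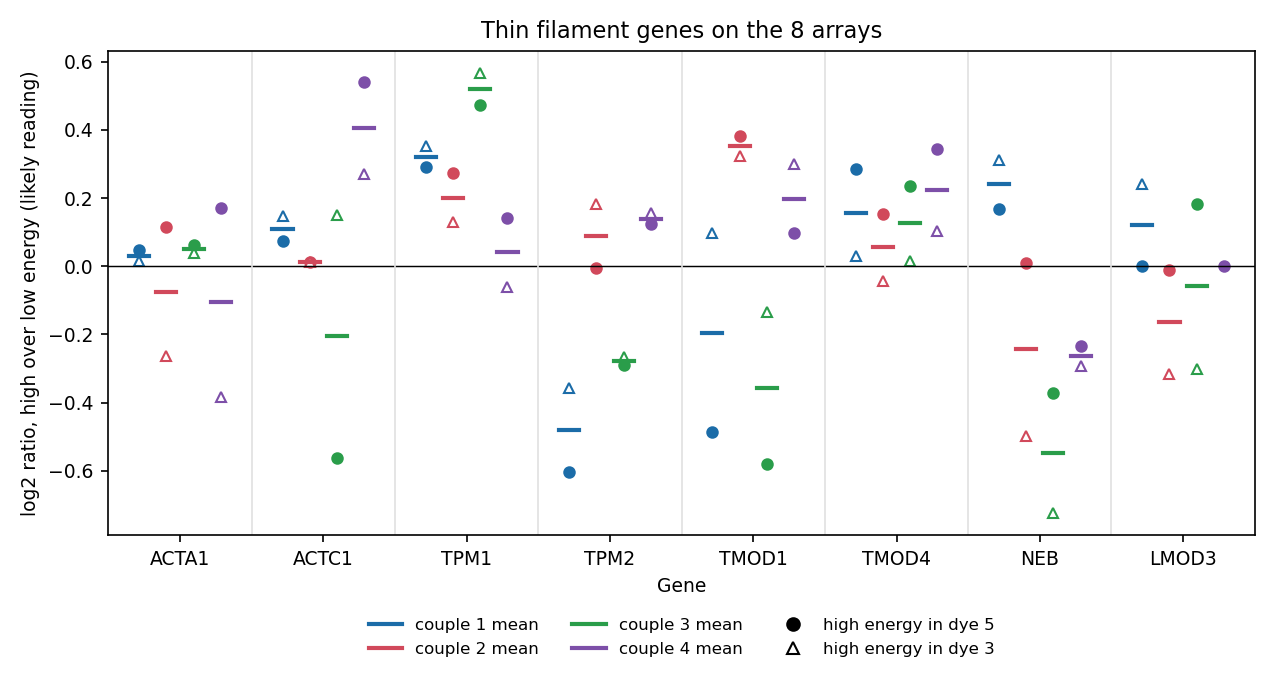
Log2 ratios of the 8 thin filament genes with a spot on each of the 8 arrays, as means over the gene's spots; filled circles are arrays with high energy in dye 5, open triangles arrays with high energy in dye 3, and bars couple means, coloured by couple. TPM1 and TMOD4 have all 4 couple means above 0, which with turned values holds for TMOD4 and ACTA1, while TPM2 and TMOD1 lie below 0 in couples 1 and 3 and above 0 in couples 2 and 4, a pattern that neither keeps with turned values.

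The actins form the backbone of the filament. ACTA1, the main actin of adult skeletal muscle, had log2 ratios of 0.047 and 0.014 in couple 1, 0.12 and -0.26 in couple 2, 0.064 and 0.038 in couple 3, and 0.17 and -0.38 in couple 4, the array with high energy in dye 5 given first here and throughout. All arrays with high energy in dye 5 lay above 0, and the swapped arrays of couples 2 and 4 lay below it, so in those couples the sign turned with the dyes. The estimate was -0.038 ± 0.084 (limma SE, n = 4 couples; 95% interval -0.25 to 0.17; turned 0.15). The 2 neighbouring pairs of ACTA1 spots differed. The first pair had 0.076, 0.046, -0.0013 and 0.12 in couples 1 to 4. The second had -0.015, -0.19, 0.10 and -0.31, and its lowest values were -0.86 in couple 2 and -1.14 in couple 4, both on the same spot where high energy was in dye 3. On those arrays the other spot of the pair had -0.14 and -0.65. The spot at -1.14 had no value in couple 4 with high energy in dye 5. With the median over spots in place of the mean, the ACTA1 estimate was 0.0018.

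ACTC1, the cardiac actin, which skeletal muscle also expresses during development, had 0.073 and 0.15 in couple 1, 0.012 and 0.013 in couple 2, -0.56 and 0.15 in couple 3, and 0.54 and 0.27 in couple 4. It lay above 0 on 7 of 8 arrays, and the exception was an array of couple 3, where its 2 spots had -1.06 and -0.065. The estimate was 0.11 ± 0.14 (n = 4 couples; 95% interval -0.24 to 0.45; turned -0.038). It rested on couple 4, without which it was -0.022. Actin sequences are closely alike, and cross-hybridisation between ACTA1, ACTC1 and other actins was not tested. Of 5 cardiac muscle markers, 3 had a spot and were tested: MYL7, an atrial myosin light chain, had 0.24 ± 0.093 and lay above 0 in all 4 couples (turned 0.15), NPPA, the atrial natriuretic peptide, had -0.043 ± 0.11 (turned -0.038), and TNNI3, the cardiac troponin I, had -0.020 ± 0.14 (n = 3 couples; turned 0.20). Over all features measured in 4 couples, 7.47% lay above 0 in each couple, as MYL7 did. In couple 4, where ACTC1 had 0.41, MYL7 had 0.26, NPPA -0.10 and TNNI3 -0.17.

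Of the members, the tropomyosins had the smallest differences between dye-swapped arrays as read. This order does not hold with turned values, and the TPM2 values average 20 spots, more than for any other member. The median difference between the arrays of a couple was 0.12 for TPM1 and 0.11 for TPM2, against 0.17 to 0.32 for the other members. TPM1, which encodes the alpha tropomyosin of fast fibres and heart, had 0.29 and 0.35 in couple 1, 0.27 and 0.13 in couple 2, 0.47 and 0.57 in couple 3, and 0.14 and -0.061 in couple 4. It was high in couples 1 and 3 on both arrays and near 0 in couple 4. Its 2 spots gave nearly the same couple means, 0.29, 0.16, 0.55 and 0.041 for the first and 0.35, 0.25, 0.49 and 0.041 for the second. The estimate was 0.24 ± 0.11 (n = 4 couples; 95% interval -0.044 to 0.53; turned 0.037), a 1.18-fold difference that did not pass. TPM1 and TMOD4 were 2 of the 7 members measured in all 4 couples to lie above 0 in each of them, and none of the 7 lay below 0 in each. Over all 3640 features measured in 4 couples, 7.47% lay above 0 in each couple and 9.12% below. With turned values, ACTA1 and TMOD4 lay above 0 in each couple and TPM2 below, against 6.65% and 8.08% of all features, and TPM1 had couple means of -0.030, 0.073, -0.047 and 0.10.

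TPM2, which encodes beta tropomyosin, the isoform shared by slow and fast fibres, had -0.60 and -0.36 in couple 1, -0.0044 and 0.18 in couple 2, -0.29 and -0.27 in couple 3, and 0.12 and 0.16 in couple 4. Both arrays lay below 0 in couples 1 and 3, both above 0 in couple 4, and in couple 2 one lay at 0 and the other above it. The dye-swapped arrays of a couple differed by 0.022 to 0.25, while couple means ranged from -0.48 to 0.14. Couples 1 and 3, where TPM2 was low, share high energy sample 40 and hold low energy samples 49 and 142. The part of any single sample in these values was not tested. The sign of TPM2 did not turn with the dyes in couples 1, 3 and 4. Its turned couple means were -0.12, -0.094, -0.011 and -0.015, so with turned values couples 1 and 3 no longer lay together below the others.

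The 20 TPM2 spots form 10 pairs with neighbouring spot numbers, between 25 and 4526. They repeat the measurement on the same RNA and are not biological replicates. Averaged over both arrays of couple 1, 20 of 20 spots were below 0, with a lowest, median and highest value of -0.78, -0.52 and -0.032. In couple 2, 15 of 20 were above 0, with -0.33, 0.034 and 0.71. In couple 3, 18 of 20 were below 0, with -0.98, -0.25 and 0.12. In couple 4, 18 of 20 were above 0, with -0.26, 0.13 and 0.39. The couples thus overlapped in single spots, but nearly all spots of couples 1 and 3 lay on the other side of 0 from those of couple 4. With turned values, spots of couple 1 lay on both sides of 0, so these counts and the ranges that follow hold only as read. Leaving out any 1 of the 10 pairs kept the mean between -0.52 and -0.46 in couple 1, between -0.31 and -0.23 in couple 3 and between 0.12 and 0.16 in couple 4. In couple 2 it lay between 0.026 and 0.12, since 1 pair at 0.65 held up the mean. Without the 18 of 160 spot values whose recovered signal was under 200, the couple means of TPM2 were -0.52, 0.12, -0.27 and 0.15. The recovered signal is the larger whole number of the ratio that the deposited logarithm stands for, a lower bound on the brightness of the spot. Its median over all spots was 187 on the couple 1 array with high energy in dye 5, so values under 200 were common there. On the other arrays that median was 362 to 607.

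**Figure D2:**
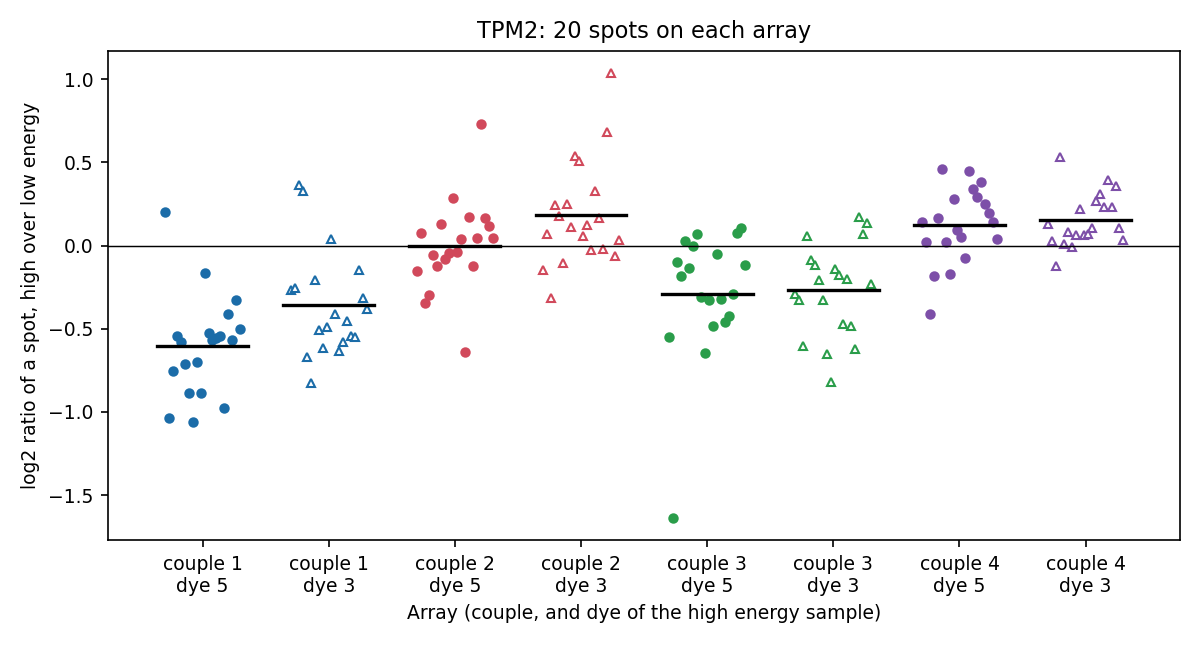
Log2 ratios of the 20 TPM2 spots on each of the 8 arrays; filled circles mark high energy in dye 5 and open triangles high energy in dye 3; black bars are the means over spots. The means are -0.60 and -0.36 in couple 1 and -0.29 and -0.27 in couple 3, and 0.12 and 0.16 in couple 4.

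Because the couples of TPM2 disagreed, its mean over couples said little: -0.083 ± 0.14 (n = 4 couples; 95% interval -0.43 to 0.26; turned -0.060). The fit gives couples 1 and 3 less weight because they share a sample, and with independent couples the estimate was -0.13; it was -0.016 without couple 1, -0.16 without couple 2 and -0.18 without couple 4. Whether couples differed by more than their dye-swapped arrays was tested with limma's F test over all features measured on 8 arrays, with a term for dye orientation. This test was added after the TPM2 values had been seen. TPM2 had an adjusted p of 0.878, TMOD1 also 0.878, NEB 0.878 and TPM1 0.899. The test called 0 of 7 members and 0 of 3640 features (0%), and at an unadjusted level of 0.05 it picked 1 of the 7 members, TPM2, and 189 features (5.19%). With turned values the F test called 0 of 3640 features, picked 180 at an unadjusted level of 0.05, and gave TPM2 an adjusted p of 0.999. The difference between couples thus did not pass over all features.

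The tropomyosins were also set against each other within each array. The TPM1 log2 ratio minus the TPM2 log2 ratio was 0.89 and 0.71 on the arrays of couple 1, 0.28 and -0.054 in couple 2, 0.76 and 0.83 in couple 3, and 0.018 and -0.22 in couple 4. The mean of the 4 couples was 0.40 ± 0.47 (SD, n = 4 couples), and an exact two-sided sign-flip permutation test gave p = 0.25, where 0.125 is the smallest that 4 couples allow. The test takes the couples as independent, which couples 1 and 3 are not. The turned differences were 0.094, 0.17, -0.036 and 0.12 in couples 1 to 4, so couples 1 and 3 had the largest differences as read and the lowest when turned.

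The tropomodulins cap the filament's pointed end. TMOD4, the skeletal muscle tropomodulin, had 0.28 and 0.030 in couple 1, 0.15 and -0.042 in couple 2, 0.24 and 0.016 in couple 3, and 0.34 and 0.10 in couple 4. It lay above 0 on 7 of 8 arrays, and in every couple the array with high energy in dye 5 was the higher one, by 0.20 to 0.25. The estimate was 0.14 ± 0.084 (n = 4 couples; 95% interval -0.069 to 0.35), and the turned value was of similar size at 0.11. With high energy in dye 5 alone the estimate was 0.25, and in dye 3 alone 0.027. The second pair of TMOD4 spots had couple means of 0.28, 0.16, 0.19 and 0.22, and the first pair 0.031, -0.045, 0.065 and 0.22.

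TMOD1, the tropomodulin first known from red cells and also found in heart and skeletal muscle, had -0.49 and 0.098 in couple 1, 0.38 and 0.32 in couple 2, -0.58 and -0.13 in couple 3, and 0.097 and 0.30 in couple 4. Its couple means of -0.19, 0.35, -0.36 and 0.20 had the same signs as those of TPM2, but in couple 1 only the array with high energy in dye 5 lay below 0. Across the 8 arrays, TPM2 and TMOD1 had the highest Pearson correlation of the 21 pairs of members, 0.78, given as a description since arrays of a couple share their RNAs. The estimate for TMOD1 was 0.055 ± 0.15 (n = 4 couples; 95% interval -0.31 to 0.42; turned -0.12), and it was -0.072 without couple 2 and -0.0059 without couple 4. A further 2 spots annotated with both TMOD1 and TSTD2 were not counted as members. Their couple means were -0.048, -0.41, -0.55 and 0.32 for one and 0.096, -0.12, 0.065 and 0.056 for the other, so neither had the signs of the TMOD1 spots in all couples. The turned couple means of TMOD1 were -0.29, 0.029, -0.22 and -0.10, and its turned correlation with TPM2 was 0.69. Blood markers, given because red cells carry TMOD1, had spots for 4 of 5 listed genes, with list medians of 0.064, 0.13, -0.12 and -0.17 in couples 1 to 4 (turned 0.0093, 0.13, -0.054 and 0.15); their part in the TMOD1 values was not tested.

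Nebulin differed in sign between couples. NEB had 0.17 and 0.31 in couple 1, 0.0092 and -0.50 in couple 2, -0.37 and -0.72 in couple 3, and -0.23 and -0.29 in couple 4. Couple 1 lay above 0 on both arrays and for all 4 spots, and couples 3 and 4 lay below 0 on both arrays. In couple 2 the arrays disagreed, and 1 spot had -1.21 with high energy in dye 3 and 0.32 with it in dye 5. The estimate was -0.21 ± 0.20 (n = 4 couples; 95% interval -0.72 to 0.29; turned 0.11), and it was -0.35 without couple 1 and -0.088 without couple 3. Couples 1 and 3, which share high energy sample 40, had NEB means of 0.24 and -0.55, while TPM2 and TMOD1 lay below 0 in both. The part of that sample was not tested. The turned couple means of NEB were -0.072, 0.25, 0.18 and 0.030. Of the 32 NEB spot values, 7 had a recovered signal under 200, and without them the couple means were 0.25, -0.12, -0.55 and -0.38.

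LMOD3, the leiomodin of skeletal muscle, was the least well measured member, with 12 spot values of a possible 16 on 7 arrays, of which 5 had a recovered signal under 200. Among these 5 is a value of 0 in couple 1, which gives a recovered signal under 200 at any brightness. Its array values were 0 and 0.24 in couple 1, -0.011 and -0.32 in couple 2, 0.18 and -0.30 in couple 3, and 0.00018 on the single array measured in couple 4. The 2 spots disagreed: the first lay between 0.11 and 0.34 wherever it was measured, and the second ranged from -0.94 to 0.37. The estimate of -0.053 ± 0.13 (n = 3 couples; 95% interval -0.39 to 0.28; turned 0.10) rested in part on which spot was present, and it was 0.031 without couple 2.

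Dye-swapped arrays of a couple lay on the same side of 0 for 21 of 31 pairs of a member and a couple, or 67.7%, and for 50.5% of 18715 such pairs over all features tested. With turned values the counts were 9 of 31 and 49.2%. ACTC1, TPM1, TPM2, TMOD1, TMOD4 and NEB each agreed in 3 of their 4 couples, ACTA1 in 2 of 4 and LMOD3 in 1 of 3. The 31 pairs share arrays and are not independent, and members with several spots are averaged over more values, so no test was made and the shares are not compared.

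**Figure D3:**
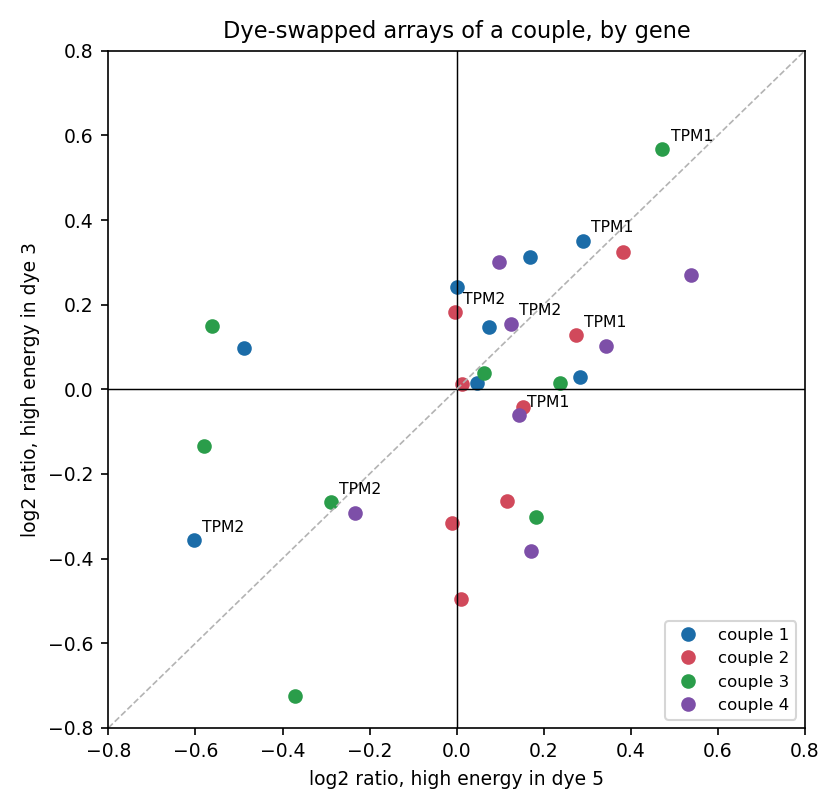
Log2 ratio of each thin filament gene on the array with high energy in dye 5 (x axis) against the dye-swapped array of the same couple (y axis), coloured by couple, with TPM1 and TPM2 named and a dashed line of equality. Of the 31 points, 21 lie in the quadrants where both arrays have the same sign, among them TPM1 in couples 1 to 3 and TPM2 in couples 1, 3 and 4.

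**Figure D4:**
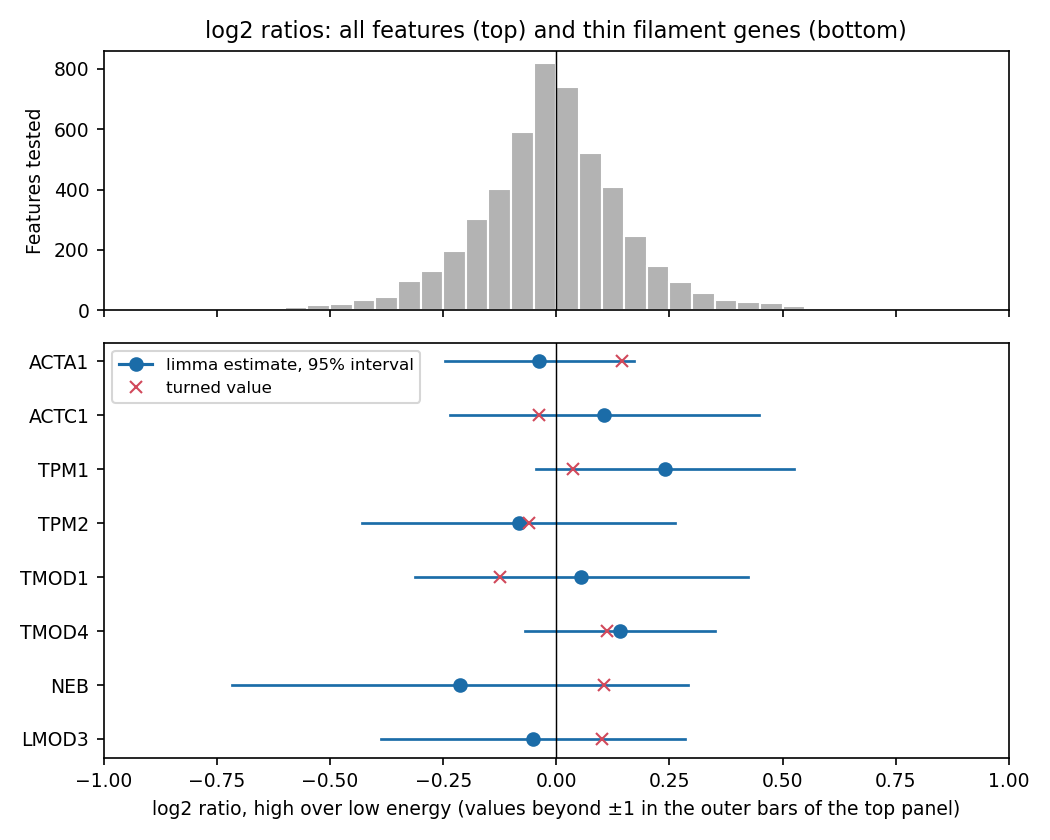
Top, log2 ratios of the 5025 features tested; bottom, limma estimates over couples with 95% intervals for the 8 thin filament genes (blue) and their turned values (red crosses). All 8 intervals include 0, and the estimates run from -0.21 for NEB to 0.24 for TPM1. The median size of the log2 ratio, without its sign, was 0.090 over all features.

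Other genes of the thin filament were summarised from lists of known roles. Of 7 measured troponin subunits, 2 lay above 0 and 5 below, with a median of -0.015 (turned -0.016) and 0 past the test. The slow TNNI1 and TNNT1 had -0.21 ± 0.10 (turned 0.078) and -0.21 ± 0.080 (turned -0.047), and the slow TNNC1 had -0.014 ± 0.083 (turned -0.073). The fast TNNI2 had 0.15 ± 0.096 (turned -0.051), TNNT3 0.088 ± 0.10 (turned -0.0035) and TNNC2 -0.015 ± 0.085 (turned -0.016). ACTG1, a cytoplasmic actin and the only other actin with a spot, had -0.030 ± 0.088 (turned 0.0060). LMOD1, the smooth muscle leiomodin, had -0.017 ± 0.11 (turned 0.070). Among 5 tested genes for capping, severing and monomer binding, 4 lay below 0, with a median of -0.076 (turned 3 below, -0.022). TWF2, a twinfilin that binds actin monomers, was lowest at -0.47 ± 0.42 (turned -0.049), with a mean of -1.68 in couple 3, and CFL1, a cofilin that severs filaments, was highest at 0.11 ± 0.14 (turned 0.033). Of 6 nebulin relatives and filament stabilisers, 4 lay above 0, with a median of 0.043, but with turned values 3 did, with a median of -0.012. They ran from -0.16 ± 0.31 for NEBL, a short nebulin relative (n = 3 couples; turned -0.30), to 0.096 ± 0.17 for NRAP, which anchors actin filaments (turned 0.032). FHL2 was the only gene of the SRF list, which covers the factor that drives actin genes, with a spot, at 0.095 ± 0.22 (turned 0.12). None of these genes passed limma's test.

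The list medians of fibre type genes did not have the signs of TPM2. All 10 slow fibre genes lay below 0 as read, but 5 of the 10 with turned values, and 2693 of all 5025 features lay below 0. They ran from -0.31 ± 0.091 for MYBPC1, a myosin-binding protein (turned 0.024), to -0.014 ± 0.083 for TNNC1, the slow troponin C (turned -0.073), and 0 of the 10 passed. The slow fibre median was -0.088 (turned -0.0029), with list medians of -0.050, -0.084, -0.025 and -0.19 in couples 1 to 4 (turned -0.019, 0.014, -0.093 and 0.066). Couple 4, where TPM2 was 0.14, thus had the lowest slow fibre median as read and the highest when turned. Of 9 fast fibre genes, 5 lay above 0 (turned 4), with a median of 0.036 (turned -0.0035). Their couple medians were 0.013, 0.067, 0.11 and 0.036 (turned -0.048, -0.045, 0.0063 and 0.018). As read, TPM1 was highest in couple 3, as was the fast fibre median, and in couple 1 they had 0.32 and 0.013. Turned, TPM1 was lowest in couple 3, at -0.047. The part of fibre type in the tropomyosin values was not tested. The highest of the fast fibre genes was the fast myosin light chain MYL1, at 0.37 ± 0.10 (turned -0.036), which did not pass. It lay above 0 in every couple, with 0.34, 0.57, 0.35 and 0.20, as did 7.47% of the 3640 features measured in 4 couples. The lowest fast fibre gene was MYH1, a myosin heavy chain of fast fibres, at -0.17 ± 0.11 (turned 0.060).

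Markers of other cells were few on the array and did not pass. The smooth muscle and vessel list had 4 of 7 genes tested and couple medians of 0.18, 0.043, -0.15 and 0.011 (turned -0.071, -0.29, -0.020 and -0.071), and the fibroblast list had 3 of 5 and 0.086, 0.038, -0.060 and 0.16 (turned -0.076, -0.052, -0.16 and -0.39). Only FABP4 of the adipocyte list was tested, with 0.030, -0.016, 0.42 and -0.51 (turned -0.045, 0.022, 0.66 and 0.076), and of the immune list C1QA and LYZ, with medians of -0.040, -0.39, -0.21 and -0.081 (turned 0.028, -0.049, -0.22 and -0.044). The part of other cells in the member values was not tested. In whole muscle RNA, a change in the share of a cell or fibre type and a change in RNA per cell cannot be told apart.

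The genes whose ratios most resembled a member's across the 8 arrays were listed from 1927 other genes measured on all arrays. For TPM2 they were ST6GALNAC2, a sialyltransferase (r = 0.89), and HSPB1, a small heat shock protein (r = 0.87). For TPM1 they were FAM107A (r = 0.90) and ASIC3, an acid-sensing ion channel (r = 0.87). For TMOD1 they were GNA11, a G protein subunit (r = 0.94), and RPS25, a ribosomal protein (r = 0.91), and for TMOD4 RPL8, a ribosomal protein, and CCDC92 (both r = 0.85). For NEB they were HAVCR2, an immune receptor (r = 0.94), and VAMP5, a vesicle protein (r = 0.93). For ACTA1 they were CCDC3 (r = 0.94) and PYM1 (r = 0.93), and for ACTC1 YTHDF1, a reader of methylated RNA (r = 0.95), and PAX8, a transcription factor (r = 0.93). No other thin filament member was among these 14 genes. These values of r are the highest of many and describe these arrays, with 2 arrays from each couple. With turned values the same 14 correlations ran from 0.22 for TPM2 with HSPB1 to 0.95 for TMOD1 with GNA11.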

How the data were processed

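Muscle RNA was compared on 8 arrays in 4 couples with swapped dyes. The authors deposited 1 log2 ratio per spot and array; the base was read from the values, since 5.62% to 17.2% of them per array equal log2 of a fraction with a small denominator, against at most 0.31% for log10. The steps before deposit (background, filters, scaling) were not given in the sources used here. Arrays were centred on their medians, spots with the same single symbol averaged, and the swapped arrays of a couple averaged to 1 replicate. The array annotation carries human symbols, and pig transcripts may bind a human probe unequally. Features measured in at least 3 couples (5025) were tested against 0 with limma 3.58.1 in R 4.3.3, two-sided, with the shared high energy sample as a block (correlation 0.5). A check on simulated data planted differences larger than any member's estimate, so it does not show whether the test finds differences of their size. The number of arrays limits the precision. Per the titles, swapped arrays hold the same RNAs, so pairing enters as the average over dyes. Members, gene lists, the test and its alternatives were chosen with earlier results of these data known. All members with a spot are named, list genes by their extremes, and the 2 most similar genes by r. TNNT1, TNNT3, TNNC2 and the cell type markers were named outside that rule.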

Additional observations from a re-analysis of the deposited data

Results flagged for a closer look

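LMOD3 had 1 value that stood apart among the 4 arrays with high energy in dye 5. It was 0.183 in couple 3, while the other arrays lay between -0.011 and 0.00018. On that array only the first of the 2 LMOD3 spots was present, and on the other arrays either the second or both. The recovered signal of that spot was under 200 there. So was that of the only spot present in couple 1, but its deposited value of 0 gives this at any brightness. The gap to the nearest array was 0.942 of the range. Of 22 sets of 4 couples or arrays examined over the members, 1 was flagged, and chance flags about 1 in 20.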

How the results depend on the processing

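Over 18 alternatives, 0 features and 0 members passed the threshold, and 0 of 8 alternatives of the test between couples gave a call. Of 141 alternative estimates for single members, 128 kept their sign and 13 did not. TPM1 (0.037 to 0.33), TMOD4 (0.027 to 0.25) and TPM2 (-0.18 to -0.016) kept theirs in all 18. Robust moderation, and requiring all 4 or at least 2 couples, cannot change an estimate, so signs under those settings were fixed in advance. With arrays of high energy in dye 3 reversed in sign, ACTA1 had 0.146, ACTC1 -0.0384, TMOD1 -0.125, NEB 0.106 and LMOD3 0.100. With high energy in dye 5 alone, ACTA1 had 0.108, TMOD1 -0.0694 and LMOD3 0.0333, and with the median over spots ACTA1 had 0.00178. Leaving out 1 couple gave -0.0219 to 0.176 for ACTC1, -0.0724 to 0.119 for TMOD1 and -0.111 to 0.0307 for LMOD3; the cause of these reversals was not tested. A fit of all 8 arrays with the couple as a replicate block gave 0.271 for TPM1, -0.132 for TPM2 and 0 calls, at a correlation of 0.0039 within couples, so it took swapped arrays almost as separate replicates. At an unadjusted level of 0.05 it picked 330 features, and independent couples 310, against 190. LMOD3 could not be fitted in 3 alternatives: dim values left out, all 4 couples required, and each spot on its own.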
